A study of Mus musculus with 9 samples.

Results

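The circadian clock genes were followed in the tibia of control, diabetic and liraglutide-treated mice. They comprised the 10 genes listed under the symbols Arntl, Clock, Npas2, Per1, Per2, Per3, Cry1, Cry2, Nr1d1 and Dbp, out of 18272 genes measured, and were chosen by name and not by their values. All 10 passed the minimum of 10 counts in at least 3 of the 9 libraries and were among the 13960 genes tested.

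The molecular clock is a loop of transcription and feedback that runs in nearly every cell, bone and muscle included. BMAL1, the product of Arntl, pairs with CLOCK or its relative NPAS2 and switches on the Per and Cry genes at E-box elements, and the PER and CRY proteins then hold BMAL1 and CLOCK back. REV-ERBα, the product of Nr1d1, represses Arntl through ROR elements, and DBP, a transcription factor that is itself driven through E-boxes, acts on D-box elements such as those of the Per genes, so that Arntl on the one side and Dbp, Nr1d1 and the Per genes on the other reach their highest levels at different times of day.

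RNA sequencing was done on tibias of female C57BL/6J mice, 3 for each of 3 groups. The NGT group was injected with citrate vehicle, had normal glucose tolerance and was labelled as given saline, the T1D group had diabetes induced by a single injection of STZ, streptozotocin, which kills the pancreatic cells that make insulin, and received saline, and the Lira group had the same STZ diabetes and received liraglutide, an agonist of the GLP-1 receptor, at 0.6 mg/kg/day. The mice were 10 to 11 weeks old at purchase and were injected after a period of acclimation. The 8 weeks of treatment began 2 weeks after the injection, under 12 h of light and 12 h of dark. The label of Lira mouse 3 gives 9 weeks of treatment and those of the other 2 Lira mice give 8. As STZ acts chemically, the T1D and Lira groups model the loss of insulin and not its autoimmune origin. The hour of day at which each bone was collected is not given in the sources used here. A difference in the level of a clock gene and a difference in clock time between mice therefore cannot be told apart in these data. The libraries were not stated to pool animals, and each is called a mouse here. The p-values measure the spread between these libraries.

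The libraries held 13086373 to 16528394 counts, so that 3 counts corresponded to 0.163 to 0.238 CPM (read counts scaled to library size with edgeR's TMM factors). The bones had been cleaned of muscle, yet all 18 genes of a skeletal muscle list were tested and summed to 143690 to 293240 CPM in the NGT mice, 107630 to 278960 in the T1D mice and 152680 to 253440 in the Lira mice. The 5 osteocyte markers summed to 1.24 to 13.0, 4.98 to 9.74 and 0.779 to 16.5 CPM in the same groups, with Sost, Mepe and Fgf23 each at 0 in at least 1 library. In bulk tissue, fewer cells of a type and less RNA per cell cannot be told apart. T1D mouse 1 stood furthest apart over all genes, being the highest or lowest of the 9 libraries for 44.5% of the genes tested. Its summed macrophage list was 767 CPM, against 70.4 and 86.6 in the other T1D mice. T1D mouse 3 was the highest or lowest for 14.9% of the genes tested, yet it held the extreme values of several clock genes. Fold changes that moved most without either mouse are also given without it.

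The promoters of 9 of the 10 genes were found by symbol in a table of RefSeq starts on mouse build GRCm38.p6, which holds 300 bases for each start, 250 before and 50 from it on (the start is base 251). The counts were made by the submitters on another build, mm9, so these positions are not used with them. The E-box CACGTG, which reads the same on both strands, was found in 2 of the 13 windows of these genes, 1 each of Per1 and Cry1, and in 7.15% of all 32851 windows. The D-box, read as TTATGTAA or TTACATAA, was found in 1 of the 13, that of Per3, at 2 places, and in 0.938% of all windows. The core of the ROR element, AGGTCA or TGACCT, was found in 3 of the 13, 1 each of Arntl, Clock and Per1, and in 16.3% of all windows. A match is only a run of letters, and a window without one says nothing of sites elsewhere in the gene. The 5 windows that hold any of the 3 motifs are shown, with the matching letters in capitals.
Per3, chr4:151044616-151044915, minus strand, D-boxes in capitals at bases 46 and 93: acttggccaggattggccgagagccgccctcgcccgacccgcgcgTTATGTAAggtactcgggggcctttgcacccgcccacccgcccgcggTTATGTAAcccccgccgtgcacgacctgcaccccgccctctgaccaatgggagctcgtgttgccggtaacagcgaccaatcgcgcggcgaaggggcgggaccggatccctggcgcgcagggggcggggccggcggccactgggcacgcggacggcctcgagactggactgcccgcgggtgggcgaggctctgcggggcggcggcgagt
Per1, chr11:69098699-69098998, plus strand, E-box in capitals at base 85 and ROR element core, on the other strand, at base 114: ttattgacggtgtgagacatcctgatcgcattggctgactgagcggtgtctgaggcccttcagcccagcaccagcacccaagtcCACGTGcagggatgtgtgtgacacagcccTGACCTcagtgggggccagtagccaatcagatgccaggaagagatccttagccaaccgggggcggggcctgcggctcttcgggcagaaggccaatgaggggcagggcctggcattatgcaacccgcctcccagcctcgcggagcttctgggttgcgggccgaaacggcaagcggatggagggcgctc
Cry1, chr10:85185005-85185304, minus strand, E-box in capitals at base 191: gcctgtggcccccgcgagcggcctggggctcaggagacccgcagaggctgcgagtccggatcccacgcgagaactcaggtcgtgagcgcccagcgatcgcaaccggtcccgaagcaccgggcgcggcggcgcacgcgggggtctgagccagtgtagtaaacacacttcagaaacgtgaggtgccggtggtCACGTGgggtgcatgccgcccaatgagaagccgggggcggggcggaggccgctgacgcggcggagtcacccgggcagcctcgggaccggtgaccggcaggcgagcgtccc
Arntl, chr7:113207261-113207560, plus strand, ROR element core in capitals at base 282, past the start: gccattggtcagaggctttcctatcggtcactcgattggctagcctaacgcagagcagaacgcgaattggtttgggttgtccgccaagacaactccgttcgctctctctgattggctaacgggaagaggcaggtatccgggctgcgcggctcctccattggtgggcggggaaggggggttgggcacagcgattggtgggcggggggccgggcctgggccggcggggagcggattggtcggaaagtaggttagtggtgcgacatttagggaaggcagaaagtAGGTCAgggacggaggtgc
Clock, chr5:76303453-76303752, minus strand, ROR element core, on the other strand, in capitals at base 132: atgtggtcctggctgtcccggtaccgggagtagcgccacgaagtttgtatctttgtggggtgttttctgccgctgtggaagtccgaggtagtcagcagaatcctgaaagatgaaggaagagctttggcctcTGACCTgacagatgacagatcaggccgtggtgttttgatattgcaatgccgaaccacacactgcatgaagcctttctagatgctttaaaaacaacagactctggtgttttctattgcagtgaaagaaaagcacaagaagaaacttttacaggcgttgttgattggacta

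Per unit of length, Nr1d1 was the most abundant clock gene in the tibia. Its mean level was 75.8 ± 19.4 FPKM (fragments scaled by the authors to gene length and depth; SD, n = 9), and it ranked first among the 10 genes in 9 of 9 mice. Per1 (23.2 ± 8.80) and Arntl (21.4 ± 6.15) followed, and their order was mixed, with Per1 above Arntl in 3 of 9 mice. Arntl lay above Cry2 in 8 of 9 mice. Cry2 (10.3 ± 4.23), Cry1 (7.69 ± 2.04), Dbp (7.04 ± 6.14) and Clock (6.93 ± 0.762) formed a middle set whose neighbours changed places between mice. The mean of Dbp was lifted by a single mouse at 22.9 FPKM, and Dbp lay above Clock in 2 of 9 mice only. Clock lay above Per3 in 9 of 9 mice. Per3 (2.13 ± 1.05), Npas2 (1.89 ± 1.18) and Per2 (1.16 ± 0.627) were the least abundant, and their order was mixed. The reads of Nr1d1 carry a limit of their own: its 3′ end overlaps Thra, the thyroid hormone receptor α gene, on the opposite strand, the strand setting of the counting is not given in the sources used here, and reads of the shared stretch cannot be told apart.

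Among the activators, the ranges of all 3 genes overlapped between the groups. Arntl was measured at 52.7, 71.6 and 60.2 CPM in the NGT mice, 52.2, 81.9 and 26.9 in the T1D mice and 93.0, 80.3 and 48.8 in the Lira mice. T1D mouse 3 was the lowest and Lira mouse 1 the highest, and mouse 1 of NGT and of T1D were nearly equal. The log2 fold change of Arntl was -0.20 ± 0.39 (SE) in T1D against NGT, 0.46 ± 0.39 in Lira against T1D and 0.27 ± 0.39 in Lira against NGT. Clock was the steadiest of the 10 genes, at 60.2, 77.4 and 69.1 CPM in NGT, 48.9, 73.5 and 56.8 in T1D and 71.4, 80.3 and 57.0 in Lira. Its highest and lowest mice differed 1.64-fold and no group stood clear of another. Npas2 was low and uneven within groups: 9.07, 7.89 and 3.33 CPM in NGT, 14.9, 8.38 and 3.73 in T1D and 7.42, 6.46 and 4.31 in Lira. Mouse 3 had the lowest value in each group.

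Of the repressors, Per1, which responds to glucocorticoids and other acute signals as well as to the clock, was measured at 58.8, 116 and 79.6 CPM in the NGT mice, 45.1, 125 and 188 in the T1D mice and 190, 117 and 104 in the Lira mice. The T1D mice spanned nearly the whole range, and the groups overlapped. A list of 11 genes known to respond to glucocorticoids summed to 3472.5 CPM in Lira mouse 1 and to 1079 to 1698 CPM in the other 8 mice, with T1D mouse 3 at 1212. The 2 mice with nearly equal Per1 thus differed in that list. Its part in Per1 was not tested.

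Per2 was measured at 3.62, 4.64 and 5.46 CPM in NGT, 5.11, 4.52 and 15.9 in T1D and 10.4, 2.88 and 6.54 in Lira. T1D mouse 3 was the highest, at 238 counts or 13.92 to 18.02 CPM (95% exact Poisson interval, which covers counting error only). Per3 was measured at 14.0, 14.7 and 18.6 CPM in NGT, 8.32, 18.2 and 37.3 in T1D and 8.78, 10.2 and 12.2 in Lira. All 3 Lira mice lay below all 3 NGT mice, whereas the T1D group held both the lowest and the highest value.

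The Cry genes, whose proteins are the strongest repressors of BMAL1 and CLOCK, differed in how far the mice spread. Cry1 was measured at 15.1, 17.2 and 24.5 CPM in NGT, 22.7, 24.0 and 14.6 in T1D and 17.2, 25.7 and 21.8 in Lira. Cry2 was measured at 28.0, 46.4 and 28.5 CPM in NGT, 28.2, 49.4 and 44.3 in T1D and 90.9, 36.6 and 29.6 in Lira. Lira mouse 1 had the highest Cry2, T1D mouse 2 came next, and the groups overlapped for both genes.

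Nr1d1 was measured at 234, 323 and 188 CPM in NGT, 118, 217 and 263 in T1D and 169, 256 and 152 in Lira, with T1D mouse 1 the lowest. Dbp, the clock output gene, was measured at 9.07, 12.6 and 11.8 CPM in the NGT mice, 5.44, 7.07 and 39.5 in the T1D mice and 4.64, 7.24 and 5.17 in the Lira mice. All 3 Lira mice and 2 of the 3 T1D mice lay below the lowest NGT mouse, and the remaining T1D mouse lay above every other library. At least 5 of the 6 STZ mice lay below the lowest NGT mouse for 3.32% of all genes tested. The 593 Dbp counts of T1D mouse 3 gave 36.4 to 42.9 CPM (95% exact Poisson interval), and the highest interval of the other 8 mice ended at 14.7 CPM.

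**Figure D1:**
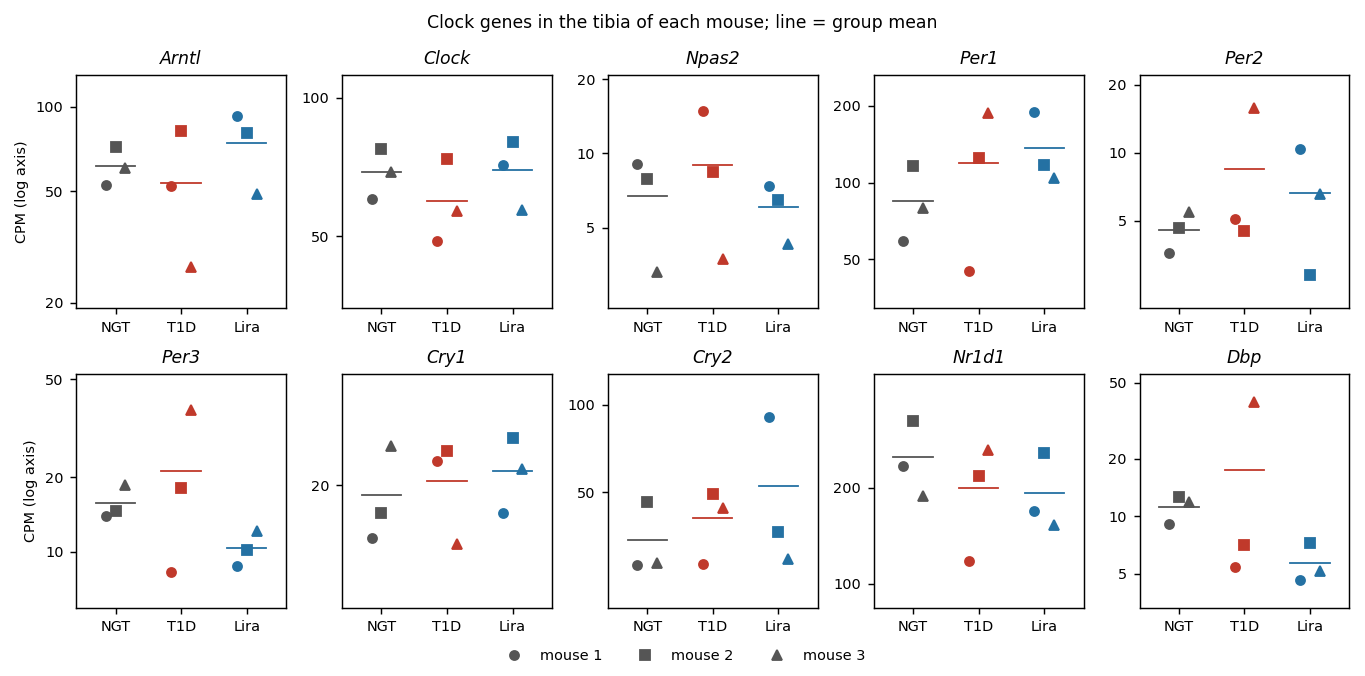
Normalized level (CPM, log axis) of the 10 clock genes in the tibia of each NGT, T1D and Lira mouse; each point is 1 mouse, the marker gives its number and the line is the mean of 3. T1D mouse 3 (red triangle) is the highest for Dbp (39.5 CPM), Per3 (37.3) and Per2 (15.9) and the lowest for Arntl (26.9) and Cry1 (14.6).

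T1D mouse 3 carried the extreme value of 5 of the 10 clock genes, against 14.9% of all genes tested. It was the highest for Dbp, Per3 and Per2 and the lowest for Arntl and Cry1. For Dbp it reached 3.14 times the next mouse, for Per3 2.01 times and for Per2 1.52 times. Over 2 times every other library, a limit set after these values were seen and one that Per3 passes narrowly, T1D mouse 3 held 10 of the 13960 genes tested (0.0716%), of which 2 were clock genes, Dbp and Per3. Dbp had the largest ratio of the 10, and Ciart, a repressor of BMAL1 and CLOCK, had the third at 2.73. The others were Kcnf1, Cd28, Chrna9, Stum, Acot1, Fam83d and Fbp2. At over 1.5 times every other library the genes were 56 (0.401%), of which Per2 was the third clock gene. At 1.5 times, T1D mouse 1 held 962 genes and Lira mouse 1 held 158, each with 1 clock gene among them. Lira mouse 3 held 968 with none. The same limit of 2 was passed by 476 genes in T1D mouse 1 and 441 in Lira mouse 3, with no clock gene among them. Ciart was at 11.4 CPM in T1D mouse 3 and at 1.14 to 4.18 CPM in the other 8 mice. Nfil3, which represses D-box genes and so works against DBP, was at its lowest in T1D mouse 3, at 34.7 CPM against 66.5 to 139 in the others. In T1D mouse 3 the skeletal muscle list summed to 278960 CPM, below the 293240 of NGT mouse 3, in which Dbp was 11.8 CPM. Within that list of 18 T1D mouse 3 was the highest of the 9 mice for 4 genes, Actn3 (17559 CPM), Acta1 (41625), Atp2a1 (46646) and Mylpf (11592), and the lowest for 3, Myh1 (1419), Myh2 (1060) and the myoglobin gene Mb (475). Its 9 tested erythroid markers summed to 19041 CPM, against 391 to 6614 in the NGT mice, 493 and 1947 in the other T1D mice and 830 to 29142 in the Lira mice. The part of these in the clock gene values was not tested.

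The other mice had patterns of their own. T1D mouse 1 also carried 5 extreme values, the highest Npas2 and the lowest Clock, Per1, Per3 and Nr1d1, but it was extreme for 44.5% of all genes. Lira mouse 1 was the highest for Arntl, Per1 and Cry2 and the lowest for Dbp, 4 of 10 against 20.2% of all genes. Lira mouse 2 was the highest for Clock and Cry1 and the lowest for Per2, 3 of 10 against 19.7% of all genes. The NGT mice held 1 each, and T1D mouse 2 and Lira mouse 3 held none.

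**Figure D2:**
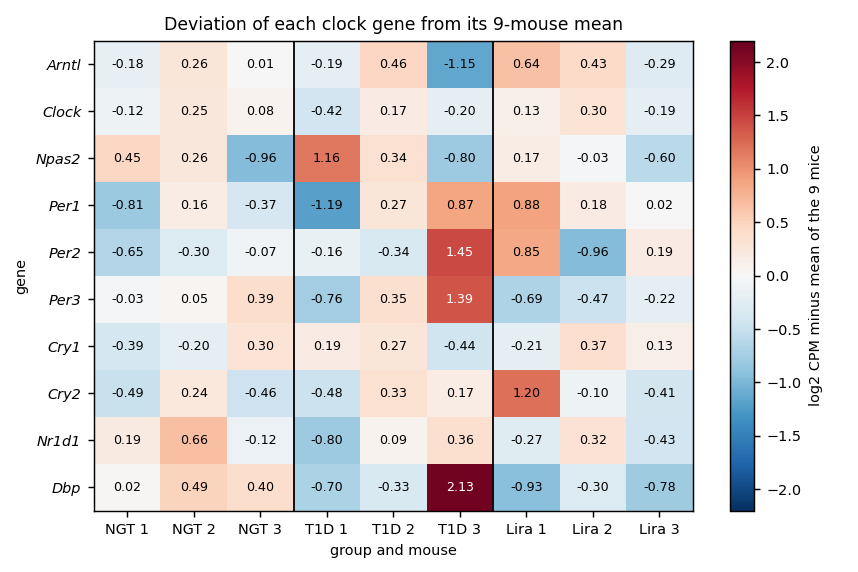
Deviation of each clock gene (rows) in each mouse (columns) from its mean over the 9 mice, in log2 CPM; red is above and blue below the mean. The 3 highest values are all in T1D mouse 3, for Dbp (2.13), Per2 (1.45) and Per3 (1.39), and the lowest are Per1 in T1D mouse 1 (-1.19) and Arntl in T1D mouse 3 (-1.15).

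Within a mouse, the ratio of Dbp to Arntl does not depend on library scaling. On the log2 scale of FPKM it was -1.60, -1.59 and -1.45 in the NGT mice, -2.44, -2.60 and 1.46 in the T1D mice and -3.42, -2.56 and -2.30 in the Lira mice. T1D mouse 3 was the only one of the 9 with more Dbp than Arntl. The other 5 STZ mice lay below all 3 NGT mice, which is a description made after T1D mouse 3 was set aside. The log2 ratio of Per3 to Arntl was -0.84 in T1D mouse 3 and between -4.76 and -2.95 in the other 8 mice, and that of Nr1d1 to Arntl was 3.37 in T1D mouse 3 and between 0.94 and 2.25 in the others. For both of these ratios the other 5 STZ mice overlapped the NGT mice, as with Per3 to Arntl at -3.24 in Lira mouse 3 and -3.58 in NGT mouse 2, and Nr1d1 to Arntl at 1.75 in Lira mouse 2 and 1.72 in NGT mouse 3.

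**Figure D3:**
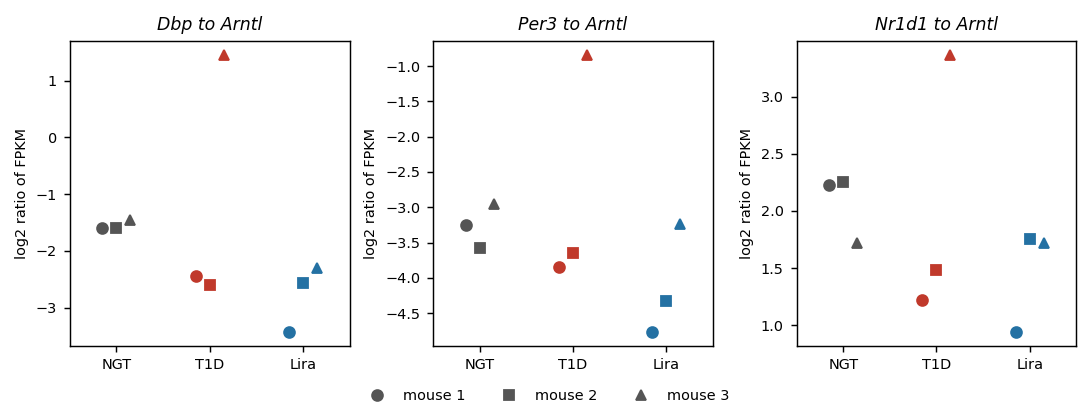
Log2 ratio of Dbp, Per3 and Nr1d1 to Arntl within each mouse, from deposited FPKM; each point is 1 mouse and the marker gives its number. T1D mouse 3 lies above the other 8 mice in each panel, at 1.46, -0.84 and 3.37. The other 5 STZ mice lie below the NGT mice for Dbp to Arntl and overlap them for Per3 to Arntl and Nr1d1 to Arntl.

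The first comparison asked which clock genes differ in the tibia of diabetic mice. No clock gene passed the test between T1D and NGT, as none of the 13960 genes tested did (0% called at over 2-fold and a Benjamini-Hochberg adjusted p under 0.05 in edgeR's quasi-likelihood test). At an unadjusted p under 0.05 there were 0 of 10 clock genes, against 3.95% of all genes. DESeq2, the other tool run, also gave 0 clock genes at that p. None of the 10 genes separated the groups without overlap, against 8.60% of all genes. The fold change was above 0 for 7 and below 0 for 3, with a median log2 of 0.33 beside 0.02 over all genes. Per2 (0.89 ± 0.59), Dbp (0.64 ± 0.67), Per1 (0.49 ± 0.49), Per3 (0.43 ± 0.46) and Npas2 (0.41 ± 0.53) had the highest log2 values, none over 2 SE from 0, and Nr1d1 had the lowest (-0.32 ± 0.35). The lowest adjusted p among the 10 was 0.977 in edgeR's quasi-likelihood test.

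The values above 0 of Dbp and the Per genes rested on T1D mouse 3. Without it, the log2 fold change of Dbp in T1D against NGT moved from 0.64 to -0.83 ± 0.31, with an unadjusted p of 0.0282 in edgeR's quasi-likelihood test and an adjusted p of 0.903. Per3 moved from 0.43 to -0.25, Per2 from 0.89 to 0.08, Per1 from 0.49 to 0.00 and Arntl from -0.20 to 0.12. Dbp was then the 1 clock gene of 10 at an unadjusted p under 0.05, against 4.98% of all genes. Without T1D mouse 1, Per1 (0.89 ± 0.36, unadjusted p = 0.0419) and Per3 (0.82 ± 0.32, unadjusted p = 0.0334) were the 2 of 10 at that p in edgeR's quasi-likelihood test, against 2.99% of all genes, both with adjusted p of 1.00. Npas2 moved from 0.41 to -0.16 without T1D mouse 1. The direction for Dbp and Per3 thus depended on which T1D mouse was included.

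The second comparison asked which clock genes differ with liraglutide among diabetic mice. It shares the T1D mice with the first, so the signs of the 2 comparisons are not independent. None of the 10 genes passed the test, as none of all genes did (0%). Dbp had a log2 fold change of -1.61 ± 0.69 in Lira against T1D, with an unadjusted p of 0.0457 and an adjusted p of 0.978 in edgeR's quasi-likelihood test. It was the 1 of 10 at an unadjusted p under 0.05, against 3.33% of all genes, and DESeq2 gave 2, Dbp and Per3. In the fit of the 2 groups alone there was none. Per3 followed at -1.03 ± 0.46 with an unadjusted p of 0.0528 in the same edgeR test. Npas2 (-0.57 ± 0.54) and Per2 (-0.36 ± 0.58) were also below 0, and Arntl (0.46 ± 0.39), Cry2 (0.36 ± 0.43), Clock (0.22 ± 0.20) and Per1 (0.20 ± 0.49) above it. The count was 5 above and 5 below, with a median log2 of 0.02 beside 0.04 over all genes, and no gene of the 10 separated the groups, against 7.13% of all genes.

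Without T1D mouse 3 the difference in Dbp between Lira and T1D was -0.14 ± 0.30 and that in Per3 -0.35 ± 0.35, and no clock gene was at an unadjusted p under 0.05, against 5.06% of all genes. Without T1D mouse 1, Dbp was at -2.04 ± 0.60 (unadjusted p = 0.0104) and Per3 at -1.42 ± 0.32 (unadjusted p = 0.0023, adjusted p = 0.998, edgeR's quasi-likelihood test), against 2.36% of all genes at that p. The values of Dbp in the other 2 T1D mice, 5.44 and 7.07 CPM, lay within the 4.64 to 7.24 CPM of the Lira mice. Single mice also carried the values of Per2, which was at 0.46 without T1D mouse 3, and of Npas2, which was at 0.00 without T1D mouse 1. Cry2 turned to -0.30 without Lira mouse 1. Per1 turned to -0.19 without T1D mouse 1 and to -0.11 without Lira mouse 1.

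**Figure D4:**
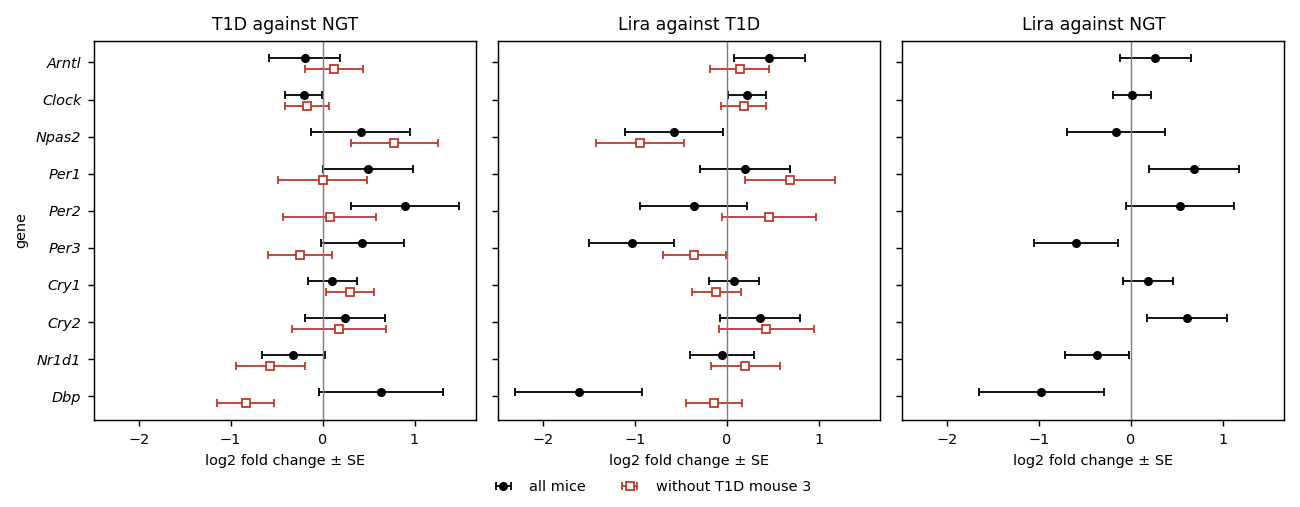
Log2 fold change ± SE of the 10 clock genes in 3 comparisons, from edgeR with all mice (black circles) and, where T1D mice enter the contrast, without T1D mouse 3 (open red squares). For Dbp in T1D against NGT the value moves from 0.64 to -0.83 without that mouse, and in Lira against T1D from -1.61 to -0.14.

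The third comparison, Lira against NGT, does not use the values of the T1D mice except in the common estimate of the spread. No clock gene passed the test (0% of all genes did), and 0 of 10 were at an unadjusted p under 0.05, against 0.781% of all genes. DESeq2 also gave 0. Dbp (-0.97 ± 0.68) and Per3 (-0.60 ± 0.46) had the lowest log2 fold changes. They were the 2 of 10 whose groups did not overlap, both lower in Lira, against 4.27% of all genes in either direction and 1.78% lower in Lira. The 95% exact Poisson intervals of the closest mice did overlap. For Dbp they were 5.85 to 8.87 CPM in Lira mouse 2 and 7.65 to 10.7 in NGT mouse 1. For Per3 they were 10.6 to 13.9 CPM in Lira mouse 3 and 12.2 to 15.9 in NGT mouse 1. With 3 mice against 3, an exact permutation test of 1 gene cannot give a p under 0.1. In the fit of the 2 groups alone, whose spread does not include the T1D mice, edgeR's quasi-likelihood test gave unadjusted p of 0.0083 for Dbp and 0.0296 for Per3, both with adjusted p of 0.999. Per1 (0.69 ± 0.49), Cry2 (0.61 ± 0.44) and Per2 (0.53 ± 0.59) had the highest log2 values. These leaned on Lira mouse 1, without which Per1 was at 0.38, Cry2 at -0.053 and Per2 at 0.048. The direction was above 0 for 6 and below 0 for 4 genes, with a median log2 of 0.10 beside 0.04 over all genes.

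The spread between mice of 1 group differed among the clock genes. The SD of log2 CPM within groups was 0.36 in the median of all tested genes. It was 0.92 for Dbp, above 86.5% of them, and 0.25 for Clock, above 26.9%. Per2 (0.79), Npas2 (0.76), Per1 (0.72) and Per3 (0.65) lay between the percentiles of 76.5 and 82.8, and Cry1 (0.35) near the middle at 48.5. Without T1D mouse 3 the SD of Dbp was 0.29 and that of Per3 0.41, and since that mouse was left out for its high values of both genes, nothing is read from the fall. Among the repressors the largest SD was then that of Cry2, 0.65.

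The 45 pairs of clock genes were compared across the 9 mice in log2 CPM. None had an adjusted p under 0.05 (the lowest was 0.136, Benjamini-Hochberg over 45 exact permutation tests), and 3 had an unadjusted p under 0.05. Per3 and Dbp had the highest Pearson r, 0.899 (exact permutation p = 0.0030, adjusted p = 0.136), with a Spearman rho of 0.767 (exact permutation p = 0.0214, adjusted p = 0.241). Without the 2 mice whose Per3 lay farthest from its median, T1D mice 1 and 3, r was 0.674, and without T1D mouse 3 alone it was 0.714. With each group centred at its mean, r was 0.866 and the exact permutation p within groups 0.130. Without T1D mouse 3 the relation of Per3 to Dbp was no longer at an unadjusted p under 0.05 (exact permutation p = 0.0547).

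Per1 and Cry2 had an r of 0.786 (exact permutation p = 0.0088, adjusted p = 0.199) and a rho of 0.900 (exact permutation p = 0.0020, adjusted p = 0.0913). Their r was 0.834 without T1D mouse 3, 0.791 without NGT mouse 1 and T1D mouse 1, the 2 farthest on Per1, and 0.749 within groups (exact permutation p = 0.0231). Arntl and Clock, the partners of the activating complex, had an r of 0.709 (exact permutation p = 0.0257, adjusted p = 0.385) and a rho of 0.800 (exact permutation p = 0.0138, adjusted p = 0.207), with 0.871 without Lira mouse 1 and T1D mouse 3 and 0.654 within groups (exact permutation p = 0.167).

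Arntl and Dbp, which peak at different times of day, had an r of -0.694 (exact permutation p = 0.0516, adjusted p = 0.444) and a rho of -0.333 (exact permutation p = 0.385, adjusted p = 0.826). Without Lira mouse 1 and T1D mouse 3, the 2 farthest on Arntl, r was 0.319. It was -0.637 without Lira mouse 1 alone and -0.061 without T1D mouse 3 alone, so that the opposite movement rested on T1D mouse 3. With library size in place of TMM scaling r was -0.891 (exact permutation p = 0.0098, adjusted p = 0.127), and with T1D mouse 1 and Lira mouse 3 left out it was -0.932 (exact permutation p = 0.0069, adjusted p = 0.161), both with T1D mouse 3 included. Nr1d1 and Dbp had an r of 0.610 (exact permutation p = 0.0789, adjusted p = 0.444) and a rho of 0.800 (exact permutation p = 0.0138, adjusted p = 0.207), and r was 0.632 without NGT mouse 2 and T1D mouse 1. Other pairs had a higher r without T1D mouse 3. Arntl and Cry2 went from 0.427 to 0.861 and Arntl and Per1 from 0.058 to 0.802, and the lowest adjusted p of the 45 pairs over those 8 mice was 0.104 by exact permutation.

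**Figure D5:**
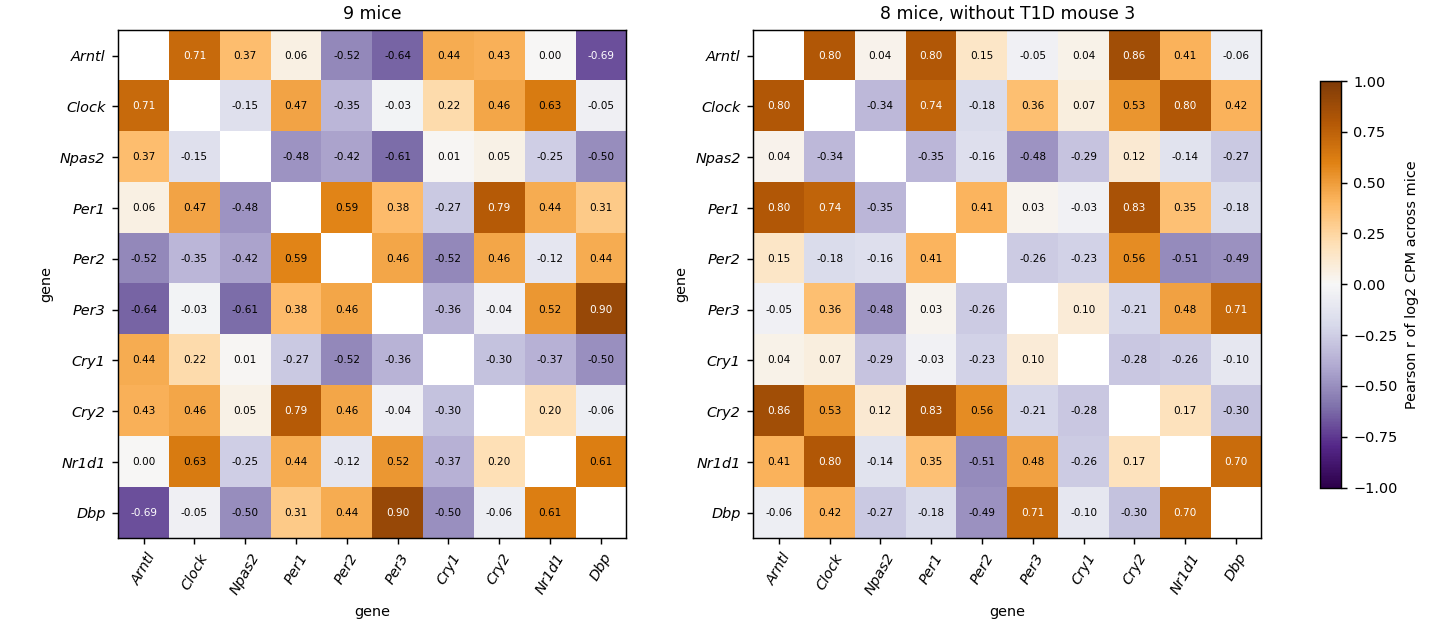
Pearson r of log2 CPM between each pair of the 10 clock genes across 9 mice (left) and across the 8 mice other than T1D mouse 3 (right); orange is positive, purple negative. Arntl and Dbp go from -0.69 to -0.06 and Arntl and Per1 from 0.06 to 0.80, while Per1 and Cry2 stay at 0.79 and 0.83.

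Likeness across the 9 mice was also set against all tested genes with a mean of at least 5 CPM, as a description in which the libraries, their depth and the muscle share are common to every gene. Of 10412 such genes, Per3 had the highest r with Dbp. Nr1d2, the REV-ERBβ gene, ranked 44th at 0.768, and Bhlhe41, a repressor that binds E-boxes, ranked 72nd at 0.736. Nfil3 was the 85th from the bottom at -0.704, and it ranked 9th from the top with Arntl, at 0.911. Without T1D mouse 3 the r of Dbp was 0.721 with Nr1d2, 0.578 with Bhlhe41 and -0.137 with Nfil3, and that of Arntl with Nfil3 was 0.768.

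Outside the 10 clock genes, the 5 genes most like Dbp were Ppp1r1a (0.884), 2310009B15Rik (0.882), Avil (0.882), Vamp5 (0.871) and Spa17 (0.867), and the 5 least like it were Gtf2b (-0.966), Pmm2 (-0.917), Letmd1 (-0.914), Zbtb26 (-0.887) and Tmem189 (-0.879). Without T1D mouse 3 the first 5 ranged from 0.579 to 0.788 and the last 5 from -0.901 to -0.645. Those most like Arntl were Kcnq5 (0.960), Ubxn4 (0.946), Riok2 (0.945), Tbc1d1 (0.941) and Leng1 (0.925), which stayed between 0.800 and 0.904 without that mouse. Those least like it were Sltm (-0.885), Cyb561d1 (-0.879), Tmem9 (-0.846), Serpine2 (-0.828) and Svbp (-0.828).

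The wider clock was described with a list of 19 further genes, of which 18 were tested. In Lira against T1D 1 of the 18 was at an unadjusted p under 0.05 and higher, and none was lower, near the 3.33% of all genes. That gene was Nfil3, at 66.5, 78.9 and 34.7 CPM in T1D and 127, 139 and 79.7 in Lira, so that every Lira mouse lay above every T1D mouse. The closest 2, at 79.7 and 78.9 CPM, nearly touched, and 7.13% of all genes had no overlap. The other of the 18 with no overlap was Arntl2, a paralogue of Arntl, which was lower in Lira (1.499 to 2.10 CPM) than in T1D (2.13 to 2.88) and in NGT (2.32 to 2.79), with 21 to 53 counts per library and a log2 fold change of -0.50 ± 0.30 in Lira against T1D. The log2 fold change of Nfil3 was 0.94 ± 0.33 with an unadjusted p of 0.0188 and an adjusted p of 0.978 in edgeR's quasi-likelihood test, and 0.66 ± 0.28 without T1D mouse 3 (unadjusted p = 0.0448, adjusted p = 0.870). None of the 18 was at that p in T1D against NGT or in Lira against NGT. The median log2 fold changes of the list were 0.01, -0.08 and 0.03 in T1D against NGT, Lira against T1D and Lira against NGT, beside 0.02, 0.04 and 0.04 over all genes. Tef, a relative of DBP, was like Nfil3 among the 3 most abundant genes of the list per unit of length. It ranged from 87.8 to 394 CPM over the 9 mice and was highest in T1D mouse 3.

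A list of 15 genes described as targets of the clock in other tissues was tested whole. Tspan4, a tetraspanin, was the 1 gene of 15 at an unadjusted p under 0.05 in T1D against NGT, near the 3.95% of all genes, at 7.62, 6.88 and 6.02 CPM in NGT, 13.2, 9.62 and 11.7 in T1D and 5.57, 7.94 and 7.86 in Lira. The T1D mice lay above all others. No overlap was seen for 8.60% of all genes in T1D against NGT and for 7.13% in Lira against T1D. Of the 6 macrophage markers, 4 were at an unadjusted p under 0.05 and higher in T1D against NGT. The list median log2 was 2.72 there and -2.003 in Lira against T1D. The summed list was highest in T1D mouse 1, at 767 CPM against 70.4 and 86.6 in the other T1D mice. It was 27.4 to 102 CPM in the NGT mice and 71.3 to 113 in the Lira mice. The part of these markers in Tspan4 was not tested. The log2 fold change of Tspan4 was 0.75 ± 0.23 in T1D against NGT (unadjusted p = 0.0115, adjusted p = 0.977) and -0.69 ± 0.23 in Lira against T1D (unadjusted p = 0.0170, adjusted p = 0.978) in edgeR's quasi-likelihood test, from comparisons that share the T1D mice. The most abundant genes of the list were Tcap, a protein of the sarcomere, Pdk4, a kinase that restrains glucose oxidation, and Cdkn1a, the p21 cell cycle inhibitor. Pdk4 ranged from 297 to 6029 CPM over the 9 mice, with Lira mouse 1 the highest and T1D mouse 1 the lowest.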

How the data were processed

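RNA of 9 mouse tibias (3 NGT, 3 T1D, 3 Lira) was sequenced by the authors, whose alignments to the mouse genome gave the deposited values, an expected (estimated) count and an FPKM per gene in each library. The submitters' processing notes name mm9. The aligner, counter, annotation and strand setting are not given in the sources used here. Of the deposited expected counts 30.2% were not whole, and all were rounded. Library totals were 13086373 to 16528394 counts.

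The 13960 of 18272 genes that reached 10 counts in 3 or more libraries were fitted with edgeR 4.0.16 (R 4.3.3; TMM scaling, quasi-likelihood test, 1 mean per group over all 9 libraries, common biological coefficient of variation 0.433). A gene was called at Benjamini-Hochberg adjusted p under 0.05 over all tested genes and fold over 2. SE are those of the fitted log2 fold change, and log2 CPM used a prior count of 2. FPKM served only to order different genes within a library and for ratios within a mouse. In data simulated for T1D against NGT on 13960 genes, 98 of 200 genes changed 4-fold and 175 of 200 changed 16-fold were called, with 5 and 6 false calls. Correlations used exact permutation over 9 mice (scipy 1.17.1).

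The members, gene lists, tests and alternatives were chosen with earlier results of these data known. Named genes were the 10 clock genes, of the other clock genes and the clock targets those at unadjusted p under 0.05 and the 3 most abundant by FPKM, of the other lists at most the 3 most abundant, and the 5 genes at each end of likeness to Arntl and Dbp. One gene that this rule names is not reported here. The genes that stood out in T1D mouse 3, the markers at 0, Actn3, Mylpf, Myh1, Myh2, Mb, Nr1d2, Bhlhe41, Arntl2 and Ciart were named after their values were seen. Alternatives were DESeq2 1.42.0, library size scaling, no low-count filter, the 2 compared groups alone, the replicate number as a block, the muscle list as a covariate, and each mouse left out. Deviations from the group mean over all genes had r of 0.583, 0.647 and 0.283 between same-numbered NGT and T1D mice. Between same-numbered Lira and T1D mice r was -0.244, 0.615 and 0.271, and between Lira and NGT mice -0.173, 0.727 and 0.012. The highest r, 0.780, was between Lira mouse 3 and NGT mouse 1. These values do not settle whether the numbers pair mice. The labels give no pairing, and the main fit used none. Promoter sequences are from RefSeq on GRCm38.p6.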

Additional observations from a re-analysis of the deposited data

How the results depend on the processing

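The number of clock genes at an unadjusted p under 0.05 moved between 0 and 2 with the setting, and none was called at the adjusted threshold under any setting run (DESeq2 gave no adjusted p for 9 of the 10 genes in T1D against NGT). In T1D against NGT (0) it was 1 with the muscle covariate (Per1, log2 fold change 0.83; 4.79% of all genes). In Lira against T1D (1) it was 2 with DESeq2 (4.44% of all genes), with library size scaling (2.51%), with no low-count filter (2.97%) and with the muscle covariate (5.41%), and 0 with only the 2 groups compared (2.13%). In Lira against NGT (0) it was 2 with only the 2 groups compared (0.817%) and 1 with the muscle covariate (Per1, 0.83; 2.28%). Of all genes in Lira against T1D, DESeq2 called 1 where edgeR called 0. Leaving out 1 mouse at a time gave 0 to 2 clock genes in T1D against NGT, 0 to 2 in Lira against T1D and 0 to 0 in Lira against NGT, with 0 to 0 genes called in each comparison and 0 to 0 pairs of clock genes at the adjusted threshold.

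With the replicate block, which treats same-numbered mice as matched, no gene was called. T1D against NGT kept 0 clock genes and the log2 fold change of Dbp there was 0.23. In Lira against T1D the block gave 1 clock gene, Per3 (edgeR unadjusted p = 0.0424) in place of Dbp (0.102). The block changed no call.

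Library size scaling reversed Cry1 in Lira against T1D (-0.04) and Clock in Lira against NGT (-0.0025). It moved the median of all genes by less than 0.1 log2. The r of Arntl with Per1 reversed with library size scaling (-0.209), with T1D mouse 1 and Lira mouse 3 both left out (-0.058) and with centred groups (-0.035), and that of Arntl with Nr1d1 likewise (-0.184, -0.315 and -0.018). The cause was not tested. The other 178 fold changes under these alternatives kept their sign, and 22 of 180 reversed when 1 mouse was left out. With 1 mouse left out, the log2 fold changes that reversed ranged in T1D against NGT from -0.63 to 0.12 for Arntl, -0.16 to 0.78 for Npas2, -0.25 to 0.82 for Per3, -0.033 to 0.34 for Cry1 and -0.83 to 1.06 for Dbp. In Lira against T1D they ranged from -0.19 to 0.69 for Per1, -0.85 to 0.46 for Per2, -0.11 to 0.22 for Cry1, -0.30 to 0.65 for Cry2 and -0.32 to 0.20 for Nr1d1, and in Lira against NGT from -0.10 to 0.14 for Clock, -0.49 to 0.11 for Npas2 and -0.053 to 0.89 for Cry2. The r of Arntl ranged from -0.192 to 0.802 with Per1, -0.875 to 0.148 with Per2 and -0.121 to 0.415 with Nr1d1. Depth limits the clock genes with few reads: Per2 had 37 to 238 counts per library and Npas2 42 to 274.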
